A study of Arabidopsis thaliana with 18 samples.

Results

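The 37 genes described here are nuclear genes of Arabidopsis thaliana that encode core subunits of photosystem I (PSI, 12 genes) and photosystem II (PSII, 11), a pair of cytochrome b6f subunits and both plastocyanins (4), the leaf ferredoxins and ferredoxin:NADP reductases (4), 3 nuclear subunits of the chloroplast ATP synthase, and PGR5 with both PGRL1 proteins (3). They were listed by locus identifier and known function, with earlier results of these data in view, and all 37 were found among the 27628 genes of the deposited table. RNA was sequenced from leaves of ml2 and ml5, 2 lines labelled as knockdowns, and of the wild type (WT), at day 7 and day 0 of a dark treatment, with 3 libraries in each of the 6 groups. Column names mark the groups by the letters D and CK, which were read as day 7 and day 0. The extraction protocol mentions doxycycline, which no sample label gives. Neither plant age, nor harvest hour, nor the way the knockdowns were made is given. It is also not said whether replicates came from separate plants, so p-values cover the spread between libraries, which may be technical.

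In the thylakoid membrane of the chloroplast, PSII oxidises water and passes electrons through the cytochrome b6f complex to plastocyanin, a copper protein of the lumen. PSI takes them from plastocyanin and reduces ferredoxin, from which ferredoxin:NADP reductase makes NADPH, while the proton gradient drives the ATP synthase. The reaction centres are encoded in the chloroplast, and the nuclear genes supply peripheral, lumenal and stromal subunits, often from a pair of gene copies. PGR5 and PGRL1 serve cyclic flow around PSI, which builds a proton gradient without net NADPH.

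Totals ran from 14914598 to 20417396 counts per library, and 19493 genes had enough counts to be tested, among them all 37. ML2 averaged 27.8 CPM (normalised counts, scaled to library size) in ml2 and 253 CPM in WT at day 7, and 6.35 CPM in ml2 and 61.2 CPM in WT at day 0. ML5 averaged 0.69 CPM in ml5 and 328 CPM in WT at day 7, and 1.21 CPM in ml5 and 208 CPM in WT at day 0. Between replicates, chi-square over its degrees of freedom, which is near 1 for counting noise alone, was 1.77 to 5.91. It was 13.3 and 8.96 for ml2 day 0 replicate 1 against the others of its group. Mesophyll markers of the leaf were present at day 0, and root markers summed to at most 0.265 CPM in any library. Day 7 libraries differed from day 0 libraries in markers of several leaf cell types. The 3 mesophyll markers (CA1, RBCS1A and RCA) summed to 486 to 507 CPM in ml2, 1003.5 to 1035 in ml5 and 685 to 691 in WT at day 7, against 20314 to 21440, 27048 to 27818 and 32832 to 33080 CPM in the same genotypes at day 0. The 3 guard cell markers summed to 50.3 to 76.7 CPM at day 7 and 47.5 to 62.5 CPM at day 0, the 3 phloem markers to 148 to 185 and 332 to 426 CPM, and the 2 epidermal markers to 24.3 to 28.9 and 74.6 to 107 CPM. The 3 xylem markers summed to 2.06 to 3.11 CPM at day 7 and 8.63 to 11.6 CPM at day 0, and the 2 floral markers to 0.971 to 1.71 and 1.46 to 4.17 CPM. In WT, all 3 mesophyll, both epidermal and all 3 xylem markers were lower at day 7, while 2 of 3 phloem markers (APL and SWEET12) and 1 of 3 guard cell markers (KAT1) were higher. The part of these shifts in the results below was not tested, and in whole leaves fewer cells of a type and less RNA per cell cannot be told apart.

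Several of the sequences behind the results are given first. PGRL1A (AT4G22890) and PGRL1B (AT4G11960) are similar copies whose transcripts moved in opposite directions in the dark. Their coding sequences are 79.9% identical, and the longest run that their annotated transcripts share is 38 bases (bases 340 to 377 of the PGRL1A coding sequence and 307 to 344 of that of PGRL1B).
Shared run of PGRL1A and PGRL1B: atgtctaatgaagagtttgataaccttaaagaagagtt
The 250 bases before the annotated start of 4 members are shown for their different dark responses. In WT, LFNR2 had the largest fall, PGRL1A a large fall, PSBQ-2 a smaller one and PGRL1B the single rise. The windows were read from the TAIR10.1 nuclear chromosomes on the strand of the gene. Capitals mark CACGTG (the G-box), GATAAG (the I-box) and CCAATC in either orientation.
LFNR2, chr1:6942375-6942624, plus strand: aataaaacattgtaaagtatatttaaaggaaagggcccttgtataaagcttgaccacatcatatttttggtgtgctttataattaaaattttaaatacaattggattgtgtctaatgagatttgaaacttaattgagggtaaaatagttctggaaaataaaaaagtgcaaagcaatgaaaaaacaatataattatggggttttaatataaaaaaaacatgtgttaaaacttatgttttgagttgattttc
PGRL1A, chr4:12006736-12006985, plus strand: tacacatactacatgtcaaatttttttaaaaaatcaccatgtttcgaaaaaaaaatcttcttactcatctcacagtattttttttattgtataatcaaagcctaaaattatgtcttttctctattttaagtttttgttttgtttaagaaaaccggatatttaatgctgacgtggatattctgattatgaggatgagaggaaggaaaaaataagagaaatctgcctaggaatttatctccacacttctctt
PSBQ-2, chr4:2673244-2673493, minus strand: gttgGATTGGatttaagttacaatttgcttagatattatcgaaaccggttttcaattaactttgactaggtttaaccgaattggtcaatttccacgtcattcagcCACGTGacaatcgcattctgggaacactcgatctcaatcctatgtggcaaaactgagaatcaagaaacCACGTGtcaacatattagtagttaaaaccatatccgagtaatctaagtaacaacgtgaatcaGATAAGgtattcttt
PGRL1B, chr4:7177889-7178138, minus strand: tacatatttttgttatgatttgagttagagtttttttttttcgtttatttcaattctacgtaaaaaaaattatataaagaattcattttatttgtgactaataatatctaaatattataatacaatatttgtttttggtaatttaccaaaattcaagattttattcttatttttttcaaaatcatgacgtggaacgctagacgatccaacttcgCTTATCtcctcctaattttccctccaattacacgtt

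None of these 4 upstream windows overlaps another annotated gene, but windows of other members do. Over all 37 members, the G-box was found in the windows of 6 (16.2%), against 6.49% of 27443 windows of protein-coding genes. The I-box was found in 10 members (27.0%) and 12.3% of all windows, CCAATC in 4 (10.8%) and 10.2%, and AAATATCT, the core of the evening element, in 1 (2.70%) and 4.79%. The 6 members with a G-box were PSAE-2, PSAH-2, PSBQ-1, PSBQ-2, PSBTN and ATPD, which include both smaller and larger falls in the dark. Of the windows of these 6, only that of PSBQ-2 overlaps no other annotated gene. Motif matches are a description of these windows only.

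The first comparison asked how the genes responded to 7 days of darkness. In WT, 36 of the 37 were lower at day 7 and 1, PGRL1B, was higher, where 39.9% and 42.0% of all genes tested were lower and higher. In ml2 the counts were again 36 and 1 (40.2% and 39.6% of all genes), and in ml5 36 and 1 (40.1% and 39.7%), with PGRL1B the higher gene each time. The median log2 fold change of the members was −4.08 in ml2, −3.73 in ml5 and −4.54 in WT, beside 0.00, 0.00 and 0.04 for all genes. The 37 genes together took 0.536% of all counts in ml2, 0.765% in ml5 and 0.555% in WT at day 7, against 6.86%, 7.39% and 7.96% at day 0. Here and below, genes are counted as lower or higher where the adjusted p was under 0.05. Every member called in a pairwise comparison below had libraries that did not overlap between the groups. How often this held over all genes called was not counted, so it does not set the members apart. Log2 fold changes are given with an SE derived from the test, as the absolute log2 fold change over the square root of its F statistic. They come from the fit over all 18 libraries unless another setting is named.

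**Figure D1:**
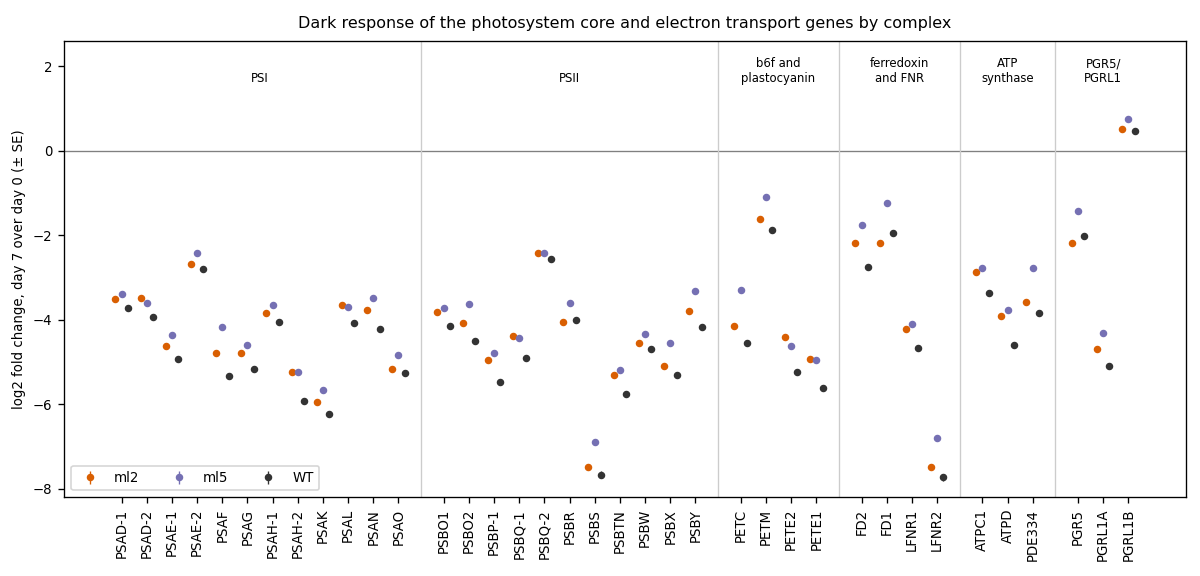
Log2 fold change (± SE, bars mostly within the points) of day 7 over day 0 on the y axis for each of the 37 genes on the x axis, by complex, in ml2, ml5 and WT (n = 3 libraries per group). Only PGRL1B lies above 0 in the 3 genotypes, and LFNR2 and PSBS lie lowest.

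The complexes differed in how much transcript was left. The summed CPM of the 12 PSI genes at day 7 was 5.85% of that at day 0 in ml2, 6.60% in ml5 and 4.54% in WT, and that of the 11 PSII genes was 6.57%, 7.51% and 5.48%. The sum of the b6f and plastocyanin genes was 8.54% of day 0 in ml2, 9.89% in ml5 and 5.65% in WT, and that of ferredoxins and reductases 7.26%, 10.9% and 6.31%. The ATP synthase genes kept 10.3%, 12.8% and 7.39%, and PGR5 with PGRL1A and PGRL1B 16.8%, 21.6% and 15.2%. In every genotype the PSI sum was thus left at the lowest share and the PGR5 and PGRL1 sum at the highest. These shares are ratios of group means without a test, and each is weighted towards the abundant members of its complex.

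Within PSI, the WT responses ran from −6.24 ± 0.062 for PSAK (AT1G30380), a subunit on the antenna side, to −2.80 ± 0.056 for PSAE-2 (AT2G20260), a subunit of the stromal ridge where ferredoxin docks. PSAH-2 (AT1G52230), on the side where light-harvesting complex II binds, was next after PSAK with −5.91 ± 0.059. PSAF (AT1G31330), which docks plastocyanin, stood at 166, 161 and 171 CPM in ml2, 304, 307 and 299 CPM in ml5 and 144, 150 and 153 CPM in WT at day 7. At day 0 it stood at 4827, 4567 and 4289 CPM in ml2, 5500, 5384.5 and 5626 CPM in ml5 and 5959, 6035 and 6048 CPM in WT. The day 7 libraries of ml5 lay above those of ml2 and WT, whereas at day 0 all WT libraries lay above those of both lines. The WT fall of PSAF was −5.34 ± 0.046. PSAL, beside PSAH, changed by −4.08 ± 0.044 in WT, lumenal PSAN by −4.21 ± 0.058, PSAO by −5.26 ± 0.053 and PSAG, another antenna-side subunit, by −5.17 ± 0.052. The other stromal ridge genes changed by −3.72 ± 0.042 (PSAD-1), −3.95 ± 0.041 (PSAD-2) and −4.94 ± 0.063 (PSAE-1).

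In the authors' counting, 5 of the 37 members had a fractional value in at least 1 library. PSAG and the opposite-strand gene AT1G55673, and PSAE-1 and the opposite-strand gene AT4G28755, had fractional values in 17 of 18 libraries, while each pair summed to a whole number (within 0.2) in 18 of 18. PSAD-1 and PSAD-2, copies of each other, had fractional values in 1 library, where their sum was whole. PSBO2 had a fractional value in 1 library. Its sum with its copy PSBO1, which had no fractional value, was not whole there, so a split of reads between these copies is not shown. Whether the counting used strand is not given in the sources used here, so reads of PSAG and PSAE-1 and of their overlapping partners cannot be told apart. Of the 37 members, 11 overlap another annotated gene. Among them PSAD-2, PSBP-1 and FD1 overlap a gene on the same strand. For FD1 this is AT1G10950, with a mean of 1805 counts per library. What such overlaps add to the counts of these members was not tested.

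Within PSII, PSBS (AT1G44575) changed most. PSBS senses lumen acidity and is needed for the rapid dissipation of excess light as heat. Its level was 4.29, 3.71 and 4.89 CPM in ml2, 7.28, 8.48 and 7.19 CPM in ml5 and 6.09, 5.09 and 6.99 CPM in WT at day 7. At day 0 it was 753, 794 and 776 CPM in ml2, 900, 918 and 935 CPM in ml5 and 1198, 1245 and 1244 CPM in WT. The levels at day 7 were thus all under 10 CPM, and the log2 fold changes were −7.49 ± 0.077 in ml2, −6.90 ± 0.072 in ml5 and −7.67 ± 0.075 in WT. Among the extrinsic proteins that stabilise the water-oxidising manganese cluster, the WT change was −4.16 ± 0.044 for PSBO1, −4.50 ± 0.045 for PSBO2, −5.48 ± 0.041 for PSBP-1, −4.91 ± 0.051 for PSBQ-1 (AT4G21280) and −2.55 ± 0.050 for PSBQ-2 (AT4G05180). PSBR, which helps PSBP to bind, changed by −4.01 ± 0.053. Among the small subunits, the WT change was −5.75 ± 0.063 for PSBTN, −5.31 ± 0.063 for PSBX, −4.69 ± 0.052 for PSBW and −4.17 ± 0.040 for PSBY.

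In the cytochrome b6f complex, PETM (AT2G26500), a small subunit, fell less than any other member that fell in WT. PETM stood at 200.4, 169 and 190 CPM in ml2, 282, 286 and 269.6 CPM in ml5 and 164, 169.9 and 171 CPM in WT at day 7. At day 0 it stood at 502, 642 and 559 CPM in ml2, 636, 589.7 and 576 CPM in ml5 and 588, 630.3 and 639 CPM in WT. No day 7 library reached a day 0 library, and at day 7 the ml5 libraries lay above the others. The WT change of PETM was −1.88 ± 0.066, while that of PETC (AT4G03280), the Rieske iron-sulfur protein of the same complex, was −4.54 ± 0.050. Of the plastocyanins, the abundant PETE2 (AT1G20340) changed by −5.25 ± 0.053 and the minor PETE1 (AT1G76100) by −5.62 ± 0.072 in WT.

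The reductases LFNR1 (AT5G66190) and LFNR2 (AT1G20020), which reduce NADP with electrons of ferredoxin, parted in the dark. LFNR2 stood at 8.48, 7.51 and 9.72 CPM in ml2, 15.5, 14.9 and 13.9 CPM in ml5 and 8.52, 8.04 and 8.40 CPM in WT at day 7. At day 0 it stood at 1399, 1613 and 1593 CPM in ml2, 1672.5, 1671 and 1605 CPM in ml5 and 1718, 1832 and 1772 CPM in WT. This was the largest fall among the members in WT, −7.73 ± 0.073, against −7.48 ± 0.073 in ml2 and −6.80 ± 0.068 in ml5, whereas LFNR1 changed by −4.67 ± 0.046 in WT. The ferredoxins fell less. In WT the main leaf ferredoxin FD2 (AT1G60950) changed by −2.74 ± 0.044 and the less abundant FD1 (AT1G10960) by −1.95 ± 0.054.

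The ATP synthase genes ATPC1 (AT4G04640, subunit gamma), ATPD (AT4G09650, delta) and PDE334 (AT4G32260, b-prime, of the membrane part) changed by −3.37 ± 0.038, −4.60 ± 0.051 and −3.85 ± 0.048 in WT. In the cyclic pathway, PGR5 (AT2G05620) changed by −2.02 ± 0.073 and PGRL1A by −5.09 ± 0.056 in WT. PGRL1B stood at 62.8, 58.8 and 62.6 CPM in ml2, 65.4, 64.7 and 68.2 CPM in ml5 and 74.9, 67.3 and 69.6 CPM in WT at day 7. At day 0 it stood at 40.3, 44.2 and 45.1 CPM in ml2, 39.98, 38.0 and 39.1 CPM in ml5 and 51.6, 52.6 and 48.2 CPM in WT. Each day 7 library lay above each day 0 library of its genotype. The rise was 0.51 ± 0.060 in ml2, 0.76 ± 0.062 in ml5 and 0.48 ± 0.060 in WT, with adjusted p-values of 6.97e-09, 1.72e-12 and 2.09e-08 by edgeR's quasi-likelihood test. The dark response of PGRL1B in ml5 exceeded that in WT by 0.28 ± 0.086 (adjusted p = 0.0103), and that in ml2 differed from WT by 0.03 ± 0.085 (adjusted p = 0.836).

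**Figure D2:**
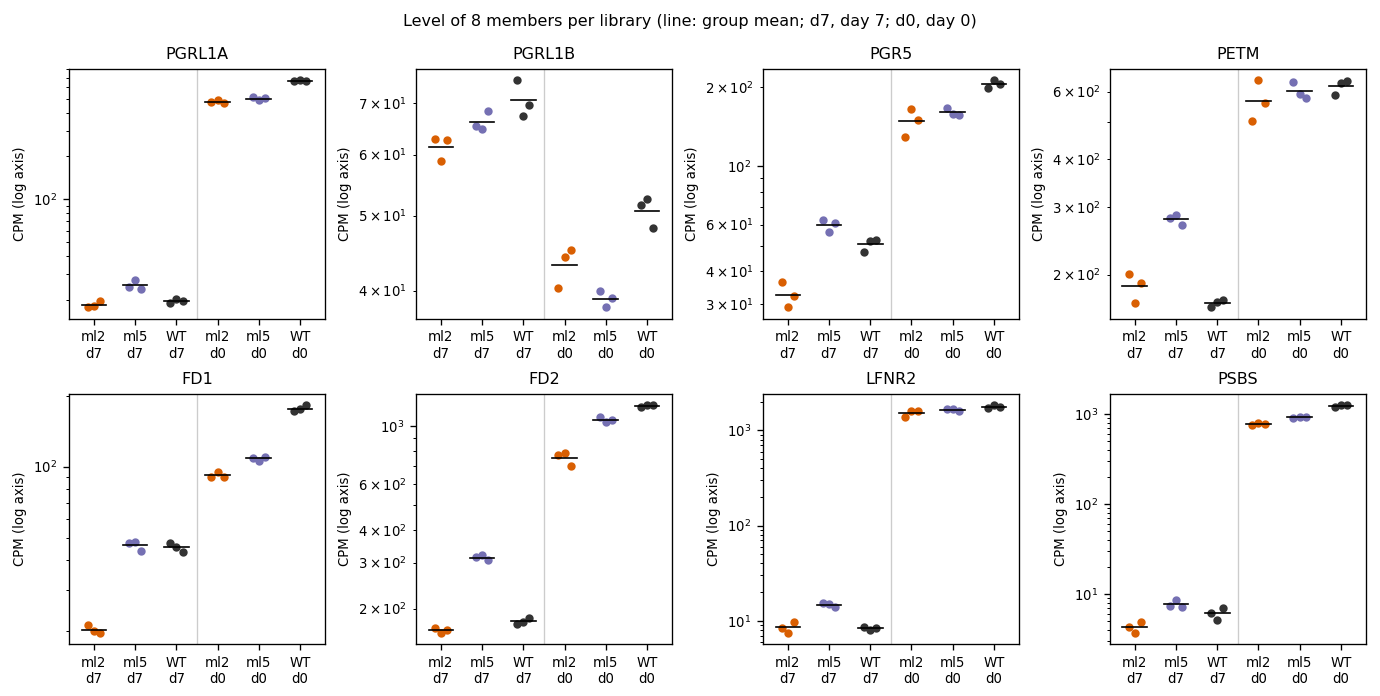
CPM on a log axis for 8 members in the 6 groups on the x axis, with 1 point per library (3 per group) and a line at the group mean. PGRL1B lies higher at day 7 than at day 0, LFNR2 and PSBS lie under 20 CPM at day 7, and FD1 lies lowest in ml2 at both days.

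The unequal falls changed the order of the genes by level per length (CPM per kb of annotated transcript). PSBR ranked highest among the 37 in all 6 groups, with 746 CPM per kb in WT at day 7 and 11999 at day 0. PSBQ-2 was the 2nd of the 37 in WT at day 7 and the 9th at day 0, PSAE-2 the 6th and the 23rd, PETM the 7th and the 32nd, and FD2 the 8th and the 24th. In the other direction, PSAK was the 30th at day 7 and the 12th at day 0, and PSAH-2 the 31st and the 16th. PGRL1B was the last of the 37 at day 0 in each genotype and the 29th, 33rd and 27th at day 7 in ml2, ml5 and WT. These ranks are a description of group means.

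Where a subunit has a pair of gene copies, the balance between the copies was measured as the share of the first copy in the CPM of the pair. Days were compared over all 18 libraries by a two-sided exact permutation test within genotypes (8000 arrangements, smallest possible p = 0.00025), adjusted over 9 pairs. PGRL1A made up 24.1% of its pair at day 7 and 92.5% at day 0, a difference of −68.3 percentage points (adjusted p = 0.000375 by this exact test). By genotype the share was 23.0 ± 0.937%, 27.6 ± 2.0% and 21.8 ± 1.44% at day 7 in ml2, ml5 and WT, and 91.7 ± 0.493%, 92.8 ± 0.0285% and 92.9 ± 0.279% at day 0 (SD, n = 3). The minor copy at day 0, PGRL1B, thus held most of the pair at day 7 in every library.

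The other large shifts went in both directions. LFNR1 made up 86.0% of the reductase pair at day 7 and 43.6% at day 0 (a difference of 42.5 points), and PSAH-1 made up 75.9% and 50.6% (25.2 points). Shares were not corrected for transcript length, which is 1300 bases for PSAH-1 and 702 for PSAH-2. In WT, PSAH-1 and PSAH-2 stood at 68.3 and 38.5 CPM per kb at day 7, and at 1143 and 2321 at day 0. PSAE-1 made up 30.7% at day 7 and 64.1% at day 0 (−33.4 points). With the reads of the overlapping gene added, the PSAE-1 share was 46.8% to 51.6% in day 7 libraries and 76.5% to 80.2% in day 0 libraries. PSBQ-1 made up 8.76% of its pair at day 7 and 29.4% at day 0 (−20.6 points). Each of these 4 had an adjusted p of 0.000375 in the exact permutation test, and day 7 and day 0 libraries did not overlap in any genotype.

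In the remaining 4 pairs the shifts over all genotypes were under 4 points. PETE2 made up 94.6% of the plastocyanin pair at day 7 and 93.0% at day 0 (1.68 points, adjusted exact p = 0.000375). PSAD-1 differed by 2.27 points and PSBO1 by 1.67 points (adjusted exact p = 0.00534 and 0.015), with genotypes that differed in direction. The PSAD-1 share was 61.6% in ml2 at day 7 and 62.1% at day 0, and the PSBO1 share 81.3% in ml5 at day 7 and 82.4% at day 0, while the other genotypes had the higher share at day 7. FD2 made up 85.3% of the ferredoxin pair at day 7 and 89.0% at day 0 (−3.70 points, adjusted exact p = 0.00257). Its share was 89.0 ± 0.265%, 87.1 ± 0.335% and 79.7 ± 1.05% in ml2, ml5 and WT at day 7, and 89.1 ± 0.507%, 90.7 ± 0.165% and 87.1 ± 0.288% at day 0. Coding identity within the 9 pairs ran from 60.3% to 87.0%, and the longest run shared by the transcripts of a pair from 17 to 38 bases.

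**Figure D3:**
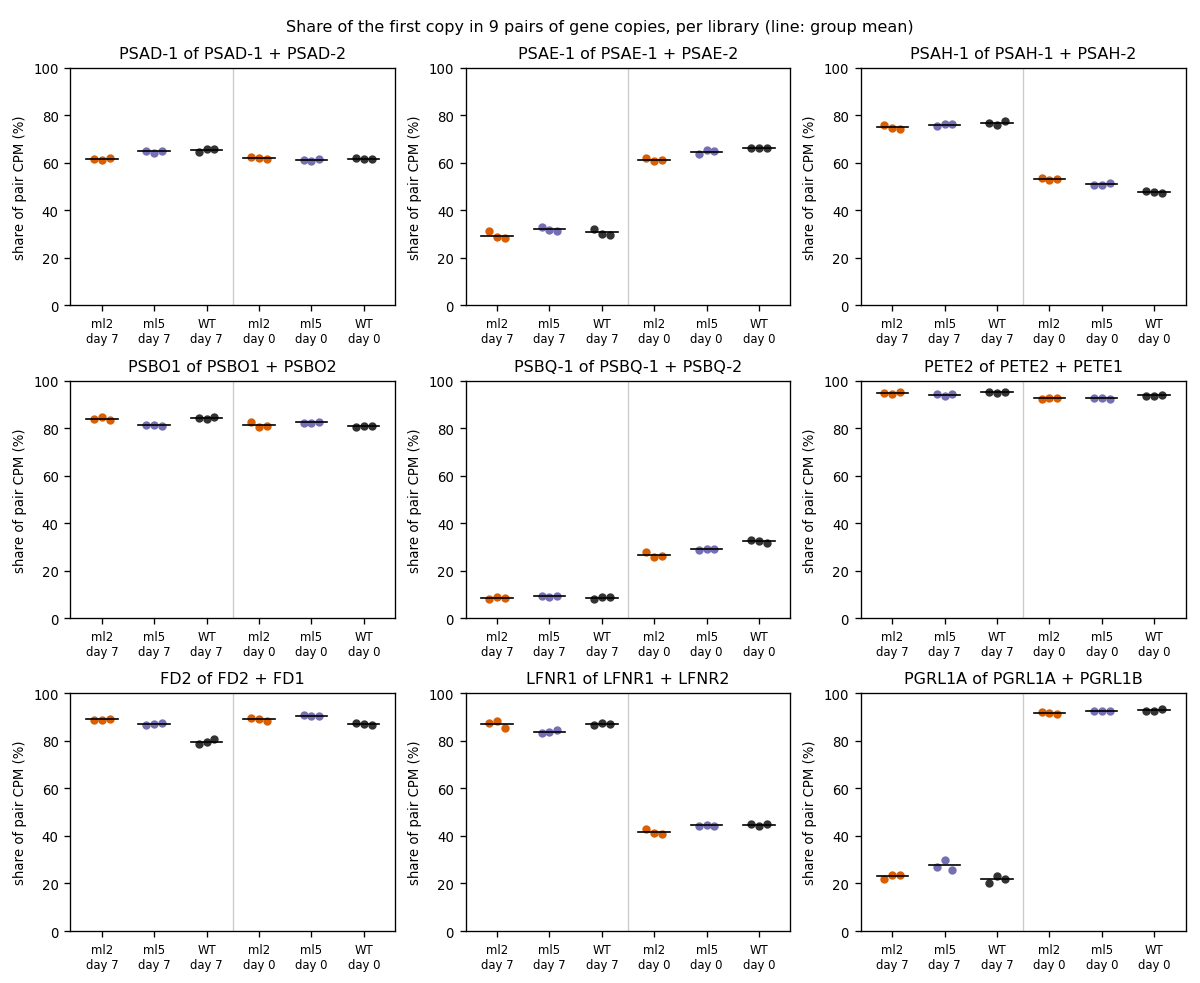
Share of the first copy in the summed CPM of each of 9 pairs (percent, y axis from 0 to 100) in the 6 groups on the x axis, with 1 point per library and a line at the group mean. Day 7 and day 0 libraries stand far apart for PSAE, PSAH, PSBQ, LFNR and PGRL1, and closer together for PSAD, PSBO, PETE and FD, where the widest gap is that of FD in WT (79.7% at day 7 and 87.1% at day 0).

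The next comparison set each line against WT before darkness. In ml2 at day 0, 33 of the 37 members were lower than in WT and 0 higher, where 22.6% and 21.9% of all genes were lower and higher, and the median log2 fold change was −0.38, beside −0.01 for all genes. FD1 differed most, with 90.0, 94.7 and 90.6 CPM in ml2 and 172, 175 and 182 CPM in WT (−0.94 ± 0.052). The other members with the largest differences were ATPD (−0.81 ± 0.042), PSBS (−0.67 ± 0.050), FD2 (−0.66 ± 0.041), PSBY (−0.54 ± 0.034) and PSAH-2 (−0.54 ± 0.046). PSAE-2, with 741, 862 and 799 CPM in ml2 and 787, 813 and 807 CPM in WT, was the member nearest to 0. Its value of −0.00 ± 0.051 was not called and took either sign with the scaling or the libraries used. Summed by complex, ml2 held 80.4% of the WT level for PSI, 81.1% for PSII, 75.8% for b6f and plastocyanin, 75.9% for ferredoxins and reductases, 68.9% for the ATP synthase genes and 72.2% for PGR5 and PGRL1. The mesophyll marker sums were also lower in both lines than in WT at day 0, though RBCS1A alone differed little between ml5 and WT (0.02 ± 0.036, adjusted p = 0.688), and their part in these differences was not tested.

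In ml5 at day 0, 24 members were lower than in WT and 1, PETE1, was higher, where 18.8% and 19.5% of all genes were lower and higher. The median was −0.15, beside 0.00 for all genes. FD1 again differed most, with 109, 106 and 110.2 CPM in ml5 against the WT values above (−0.70 ± 0.052). PSBS (−0.42 ± 0.050), PGRL1A (−0.41 ± 0.044), PGRL1B (−0.38 ± 0.065), PGR5 (−0.35 ± 0.069) and ATPC1 (−0.31 ± 0.034) followed, so that all 3 genes of the cyclic pathway were lower. PETE1, the minor plastocyanin, stood at 283, 280.2 and 286 CPM in ml5 and 229, 237 and 228 CPM in WT (0.29 ± 0.049). Both lines were set against the same WT libraries, so their differences from WT share those values. Compared directly at day 0, 26 members were higher in ml5 than in ml2 and 0 lower (14.2% and 14.5% of all genes), led by ATPD (0.56 ± 0.042), PETE1 (0.49 ± 0.049), PETE2 (0.48 ± 0.043), FD2 (0.48 ± 0.041), PSBO1 and PSBP-1. PGRL1B had the lowest value, −0.15 ± 0.064, which was not called. Without ml2 day 0 replicate 1, the library that stood apart, 2 members were called lower in ml5, PGRL1B among them (−0.21 ± 0.066), and PGRL1B was also called lower with library sizes alone (−0.25 ± 0.064, adjusted p = 0.00335).

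At day 7 the lines differed from WT in different ways. In ml5, 35 of the 37 members were higher than in WT and 0 lower, where 19.3% and 24.0% of all genes were higher and lower. The median was 0.43, beside −0.03 for all genes. PETC stood at 131, 130.1 and 127 CPM in ml5 and 64.6, 60.7 and 64.6 CPM in WT (1.03 ± 0.047). PSAF, whose values are given above, differed as much (1.03 ± 0.040). PETE1 (0.96 ± 0.092), PDE334 (0.84 ± 0.045), LFNR2 (0.83 ± 0.081) and FD2 (0.81 ± 0.042) followed. The level of PETE1 was low, with a mean of 9.09 CPM in ml5 and 4.68 CPM in WT. The genes not called were FD1 (0.03 ± 0.055, adjusted p = 0.731) and PGRL1B (−0.09 ± 0.057, adjusted p = 0.189). The sums in ml5 were 134% of WT for PSI, 126% for PSII, 171% for b6f and plastocyanin, 156% for ferredoxins and reductases, 143% for the ATP synthase genes and 107% for PGR5 and PGRL1. The mesophyll marker sums above were also higher in ml5 than in WT at day 7, by RCA (0.37 ± 0.031) and RBCS1A (1.39 ± 0.038), while CA1 was lower in ml5 (1.33 CPM) than in WT (2.73 CPM). Their part in these differences was not tested.

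In ml2 at day 7, 10 members were lower than in WT and 4 higher, where 12.4% and 13.4% of all genes were lower and higher, and the median was 0.00, beside −0.01 for all genes. FD1 stood at 21.2, 20.04 and 19.7 CPM in ml2 and 47.3, 45.6 and 43.5 CPM in WT (−1.16 ± 0.060, adjusted p = 9.39e-16). PGR5 stood at 36.3, 29.1 and 32.3 CPM in ml2 and 47.3, 52.1 and 52.5 CPM in WT (−0.64 ± 0.078). PSBS was lower too (−0.49 ± 0.109), while both plastocyanins were higher (0.50 ± 0.099 for PETE1 and 0.39 ± 0.047 for PETE2). PETE1 averaged 6.61 CPM in ml2 and 4.68 CPM in WT. PGRL1B was lower by a small margin (−0.20 ± 0.058, adjusted p = 0.00912), and its adjusted p was 0.0837 without WT day 7 replicate 1 and 0.0512 without ml2 day 7 replicate 2. The count of lower members was 6 without WT day 7 replicate 1 or 2, 5 without WT day 7 replicate 3, 5 without ml2 day 7 replicate 2 and 6 without ml2 day 7 replicate 3, and the count of higher ones was 9 without ml2 day 7 replicate 2. Over the other settings the count of lower members ran from 5 (limma-voom) to 14 (library sizes alone). The summed CPM of the 37 members in ml2 was 99.3% of that in WT. The mesophyll marker sums were lower in ml2 (486 to 507 CPM) than in WT (685 to 691 CPM), by RCA (391 and 588 CPM). RBCS1A stood at 98.6 CPM in ml2 and 96.8 CPM in WT, and CA1 was higher in ml2 (4.57 CPM) than in WT (2.73 CPM). Their part in these results was not tested.

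**Figure D4:**
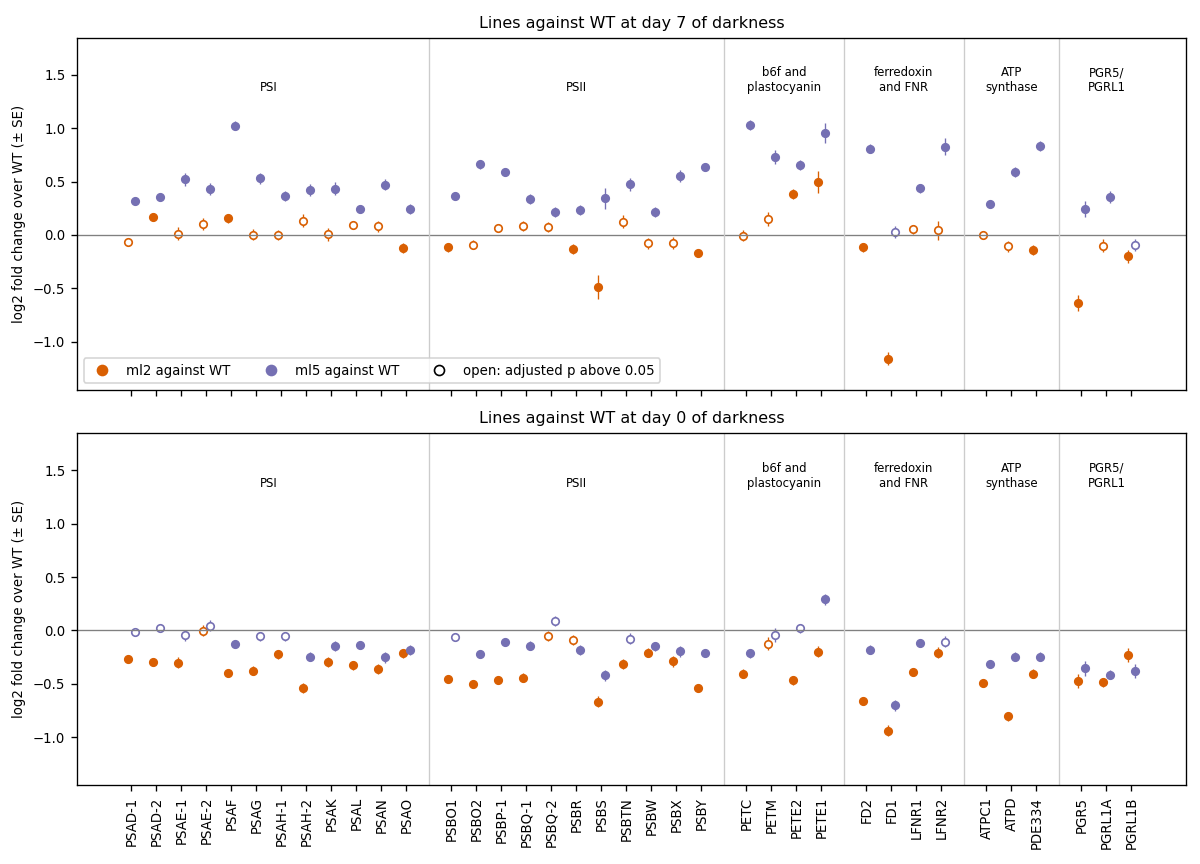
Log2 fold change (± SE) of ml2 and of ml5 over WT on the y axis for the 37 genes on the x axis, at day 7 (top) and day 0 (bottom), with n = 3 libraries per group. Filled points have an adjusted p under 0.05; in ml5 35 genes are filled above 0 at day 7, and FD1 in ml2 is the lowest point in both panels.

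Set against each other at day 7, 36 members were higher in ml5 than in ml2 and 0 lower (19.0% and 22.4% of all genes), with a median of 0.46 beside −0.02 for all genes. FD1 differed most (1.19 ± 0.060), followed by PETC (1.04 ± 0.047), PDE334 (0.97 ± 0.045), FD2 (0.92 ± 0.043), PGR5 (0.88 ± 0.077) and PSAF (0.87 ± 0.040). PGRL1B (0.11 ± 0.058) was the member not called, but it was called higher in ml5 with library sizes alone (0.19 ± 0.057, adjusted p = 0.0088) and with only the libraries compared (0.14 ± 0.051, adjusted p = 0.027).

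The last comparison asked whether the dark response itself differed from that of WT, as the difference of log2 fold changes, where a value above 0 means a smaller fall (for PGRL1B, a larger rise) in the line. In ml5, 36 of the 37 were called above 0 and 0 called below (17.4% and 18.1% of all genes), with a median of 0.60 beside −0.01 for all genes. PETC (1.24 ± 0.063), PSAF (1.15 ± 0.055), PDE334 (1.08 ± 0.061), FD2 (0.99 ± 0.059), LFNR2 (0.93 ± 0.095) and PSBO2 (0.88 ± 0.057) had the highest values. PSBQ-2 had the lowest value, which was above 0 but not called (0.13 ± 0.067, adjusted p = 0.134). It was called above 0 with RLE size factors (0.17 ± 0.066, adjusted p = 0.0448) and with only the libraries compared (0.13 ± 0.039, adjusted p = 0.00606), which made the count 37. In ml2, 27 were called above 0 and 1, FD1, was called below (13.4% and 15.6% of all genes), with a median of 0.37 beside 0.00 for all genes. PETE2 (0.85 ± 0.064), ATPD (0.70 ± 0.066), PETE1 (0.70 ± 0.111), PSAH-2 (0.67 ± 0.075), PSAF (0.55 ± 0.055) and FD2 (0.55 ± 0.059) had the highest values. The value of FD1 was −0.22 ± 0.079 (adjusted p = 0.0354), and it no longer passed with RLE size factors, DESeq2, no filter or only the libraries compared (adjusted p = 0.0948, 0.0919, 0.0641 and 0.0589). Nor did it pass without WT day 0 replicate 1 or 2, WT day 7 replicate 1 or 2, ml2 day 0 replicate 2, or ml2 day 7 replicate 2 or 3 (adjusted p from 0.0604 to 0.0972). In ml2, 33 members were lower than in WT at day 0 and 10 at day 7, as given above.

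Other genes of the pathway were described from lists. Of 26 factors for the assembly and repair of these complexes, 26 were lower at day 7 in WT (39.9% of all genes), with a median of −2.88. Among them, PSB27, a lumenal PSII assembly factor, changed by −4.81 ± 0.057, CYP38, a lumenal immunophilin of PSII assembly, by −3.67 ± 0.050 and HCF173, needed for translation of the D1 protein, by −3.85 ± 0.053. In ml5 at day 7, 13 of the 26 were higher than in WT and 3 lower (19.3% and 24.0% of all genes), with CCB1, for haem attachment to cytochrome b6, at 1.08 ± 0.12 and PSB27 at 0.91 ± 0.061. In ml2 at day 7, 5 were higher and 7 lower (13.4% and 12.4% of all genes). The lower ones included HCF164 (−0.45 ± 0.065) and the protease genes VAR2 (−0.30 ± 0.055) and DEG1 (−0.28 ± 0.048). At day 0, 22 of the 26 were lower than in WT in ml2 and 0 higher (22.6% and 21.9% of all genes). In ml5 at day 0, 18 were lower and 1 higher (18.8% and 19.5% of all genes).

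Of 17 regulators of electron transport or of photosystem genes, 16 were lower and 1 higher at day 7 in WT (39.9% and 42.0% of all genes), with a median of −1.98. CURT1B (−5.26 ± 0.049) and CURT1A (−4.59 ± 0.063), which bend the membrane at grana margins, and TROL (−3.84 ± 0.049), which tethers ferredoxin:NADP reductase, were lower. The higher gene was PTOX, the plastid terminal oxidase (0.67 ± 0.057). In ml2 at day 7, 5 were lower than in WT and 0 higher (12.4% and 13.4% of all genes). The lower ones included SIG5, a light-responsive sigma factor of the chloroplast RNA polymerase (10.3 ± 0.296 CPM in ml2 and 49.3 ± 2.06 CPM in WT, −2.25 ± 0.078), and GLK2, a transcription factor that activates photosynthesis genes (92.5 ± 3.29 CPM in ml2 and 148 ± 6.87 CPM in WT, −0.68 ± 0.057). In ml5 at day 7, 9 were higher than in WT and 2 lower (19.3% and 24.0% of all genes), with CURT1B (0.60 ± 0.045), TROL (0.61 ± 0.048) and SIG6, another sigma factor (0.52 ± 0.080), higher and PTOX (−0.44 ± 0.055) and SIG5 (−0.54 ± 0.066) lower. Compared directly at day 7, GLK2 was higher in ml5 than in ml2 (1.02 ± 0.057), as was SIG5 (1.71 ± 0.079). Differences from WT were present before darkness too. At day 0, 15 of the 17 were lower than in WT in ml2 and 0 higher (22.6% and 21.9% of all genes). In ml5 at day 0, 12 were lower and 0 higher (18.8% and 19.5% of all genes). SIG5 then averaged 54.1 CPM in ml2, 48.2 CPM in ml5 and 100 CPM in WT, and GLK2 195, 216 and 341 CPM.

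Of 8 tested genes for minor or non-leaf isoforms of the electron carriers and subunits, 5 were lower at day 7 in WT and 2 higher (39.9% and 42.0% of all genes), and 1 was not called. The higher genes were FD3, the ferredoxin of non-green tissue, with 32.9 ± 1.33 CPM at day 7 and 4.86 ± 0.711 CPM at day 0 (2.75 ± 0.117), and ATPC2, a second gamma subunit gene, with 8.49 ± 0.626 CPM at day 7 and 2.70 ± 0.158 CPM at day 0 (1.65 ± 0.165). FD3 was also higher at day 7 in ml2 (2.33 ± 0.109) and ml5 (2.20 ± 0.12). FDC1, a ferredoxin-like protein, was lower at day 7 in WT (−4.37 ± 0.104), and at day 7 it was higher in ml5 (7.29 ± 0.775 CPM) than in WT (3.22 ± 0.456 CPM), by 1.17 ± 0.132 (SD of levels, n = 3).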

How the data were processed

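Values of the deposited table are estimated counts that the authors made, judged from the values themselves: 97.1% are whole numbers, and 1937 of 27628 genes have a fractional value. The aligners were TopHat2 2.0.12 with Bowtie2 2.0.6, per the submitters' processing notes, which name the builds TAIR10 and, without a stated role, IRGSP-1.0 (rice). The counting tool, and whether it used strand, are not stated there. How a gene overlapping another is counted can move its level (PSAG and PSAE-1).

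Estimated counts were rounded to whole numbers. After filterByExpr (minimum count 10) and TMM scaling, 1 quasi-likelihood model with a mean for each of the 6 groups was fitted to all 18 libraries in edgeR 4.0.16 (R 4.3.3), with no replicate block. The 11 comparisons used two-sided p-values adjusted by Benjamini and Hochberg over 19493 genes within each, with a threshold of 0.05. CPM use TMM library sizes. With 3 libraries against 3, calls rest on a spread shared across genes. The common biological coefficient of variation was 5.63%. The code was tested on simulated data. Copies of a pair were compared by exact permutation of the copy's share, with counts per kilobase of transcript as an alternative.

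The members and lists were chosen with earlier results of these data known. All members may be named with levels and their WT dark response. In other comparisons the named members are the 6 called with the largest change, the lowest and the highest, and from each list up to 3 called per direction with the smallest adjusted p. Chloroplast-encoded subunits, and 6 assembly factors without a name in the reference, were not analysed here. Alternatives were RLE size factors, library sizes alone, other filters, DESeq2 1.42.0, limma-voom (limma 3.58.1), a model restricted to the libraries compared, a table without organelle genes, a replicate block and each library left out. Adding the reads of overlapping genes to PSAG and PSAE-1 was chosen after seeing the data. Names and sequences come from the TAIR10.1 reference annotation of RefSeq.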

Additional observations from a re-analysis of the deposited data

Results flagged for a closer look

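The following members had a dark response that differed from that of WT by the interaction test in edgeR, among the genes that the naming rule picked for these comparisons. Values are the log2 fold change of the line minus that of WT, and none of them was weighed for a cause. In ml5 they were 1.24 for PETC, 1.15 for PSAF, 1.08 for PDE334, 0.99 for FD2, 0.93 for LFNR2 and 0.88 for PSBO2. In ml2 they were 0.85 for PETE2, 0.70 for ATPD, 0.70 for PETE1, 0.67 for PSAH-2, 0.55 for PSAF, 0.55 for FD2 and −0.22 for FD1. Both lines were set against the same WT libraries.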

How the results depend on the processing

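The dark comparisons kept 36 lower members and 1 higher in each genotype under every alternative tried, with library sizes alone moving the median of all genes to 0.42 in WT, 0.41 in ml5 and 0.23 in ml2. Members of ml2 lower than WT at day 7 numbered 10, against 6 with DESeq2, 5 with limma-voom, 14 with library sizes alone and 5 to 8 with a library left out, and higher ones 4, against 4 to 9. The ml5 members higher than WT at day 0 were 2, not 1, with only the libraries compared. Members lower in ml5 than in ml2 at day 0 were 2, not 0, with library sizes alone and 0 to 2 with a library left out. Members whose dark response was called lower in ml2 than in WT numbered 1. Their count was 0 with RLE size factors, no filter, DESeq2 or only the libraries compared, 3 with library sizes alone, and 0 to 2 with a library left out. Those called higher numbered 27, against 20 (library sizes alone) to 29 in other settings and 25 to 30 with a library left out. At day 0, members lower in ml2 than in WT numbered 33, against 29 to 35 and 33 to 35. Members higher in ml5 than in ml2 at day 0 numbered 26, against 20 to 28 and 24 to 30. PSAE-2 in ml2 at day 0 turned from −0.00 to 0.112 with library sizes alone and 0.0173 with only the libraries compared, and lay between −0.05846 and 0.0272 with a library left out, never called. The cause of these shifts was not tested. No pairing by replicate number was seen in the residuals. Those of same-numbered libraries had a median correlation of −0.01 (−0.33 to 0.22, 45 pairs), and 2 of 18 libraries correlated best with their own number. Whether same-numbered libraries were grown or prepared together is not given, and these correlations cannot settle it. With a replicate block, the ml2 members lower than WT at day 7 were 7, those with a higher dark response in ml2 26, and the other counts as given. PSBQ-2 in the dark response of ml5 against WT, and PGRL1B in ml5 against ml2 at day 7, were called in 2 settings each, which made those counts 37, not 36. No alternative changed the call of a pair share. Differences at PSBS, PETE1 and LFNR2 at day 7, large or small, rest on levels under 20 CPM.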
